A study of Mus musculus with 6 samples.

Results

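Clustered protocadherin genes encode cell-surface cadherins that neurons use to tell their own processes from those of other neurons, and in the mouse they stand in 3 neighbouring clusters named alpha, beta and gamma. Each variable exon of the alpha and gamma clusters and each beta gene has a promoter of its own. CTCF binds DNA through zinc fingers and halts cohesin, the ring complex that extrudes chromatin loops. It is known to bind many of these promoters and to bring a chosen one near enhancers that lie downstream of the alpha and of the gamma exons. Their expression is best known from the nervous system, and the cells used here were not neurons.

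CTCF binding regions were taken from 100 kb before the first to 100 kb after the last gene of mouse chromosome 18 (build mm9, gene models of GENCODE vM1) whose symbol begins with Pcdha, Pcdhb or Pcdhg. The span held 85 of the 57662 regions that the authors made by joining the peaks of all libraries. The choice used position only and no measured value. The annotation gave 25 gene models, of which 22 were Pcdhb genes. It merged the alpha variable exons under the single name Pcdha11, beside Pcdha3, and the gamma variable exons under Pcdhgc5, so individual alpha and gamma exons are described by position.

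The libraries came from mouse embryonic stem cells in which the endogenous CTCF carried an auxin-inducible degron and was degraded by auxin in every group. It was replaced by an introduced CTCF, either unchanged (WT_CTCF, 2 ChIP libraries) or with T668A, a threonine-to-alanine change at an O-GlcNAc site (MUT_CTCF, 2 ChIP libraries). The lines were picked clones, so genotype and clone cannot be told apart here, and 1 input library per genotype was not used. The study's methods call the 2 libraries of a genotype biological replicates. Their labels do not say how the cultures were kept apart.

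The 2 WT_CTCF lists contained 49987 and 54001 peaks, more than the 33939 and 32712 of MUT_CTCF. Peak numbers and, as given further on, scores were lower in MUT_CTCF across the genome, so the main protocadherin values are set beside those of all other regions. The score is the number that the authors' peak caller gave each peak on tracks scaled by spiked-in Drosophila chromatin. Whether a lower score means less bound CTCF was not tested here, and the sequencing depth is unknown. The paper reports the opposite direction for binding. Its spike-in normalised ChIP-seq comparison and its immunoblots gave more chromatin-bound CTCF in MUT_CTCF cells. With 2 libraries against 2, the exact two-sided permutation test cannot give a p below 0.333, so no difference could pass 0.05. Of the 5 such tests reported in this section, 4 gave p = 0.333 (exact; 0.417 after Benjamini-Hochberg adjustment) and 1 gave p = 0.667 (exact; 0.667 adjusted). The adjustment covers these 5 alone. The same test was also computed for single spans, for the beta ratio and under alternative settings, outside this adjustment.

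CTCF regions were dense at the locus, with 7.65 per 100 kb, and a median gap between neighbouring regions of 4757.5 bp against 15216 bp over all chromosomes. They were densest in the beta and gamma clusters. The beta cluster held 33 regions (12.9 per 100 kb) and the gamma cluster 24 (14.3 per 100 kb). The alpha cluster held 13 (5.05 per 100 kb), the space between beta and gamma 6, and the space between alpha and beta only 1. The downstream flank held 7 regions (7 per 100 kb, more than the alpha cluster) and the upstream flank 1. The longest stretch between neighbouring regions was 135133 bp. The median of the authors' mean scaled read count was 212 over the 85 regions and 95.3 over all other regions, and 68 of the 85 were in the upper 5 of 10 equal bins of all regions by this mean.

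**Figure D1:**
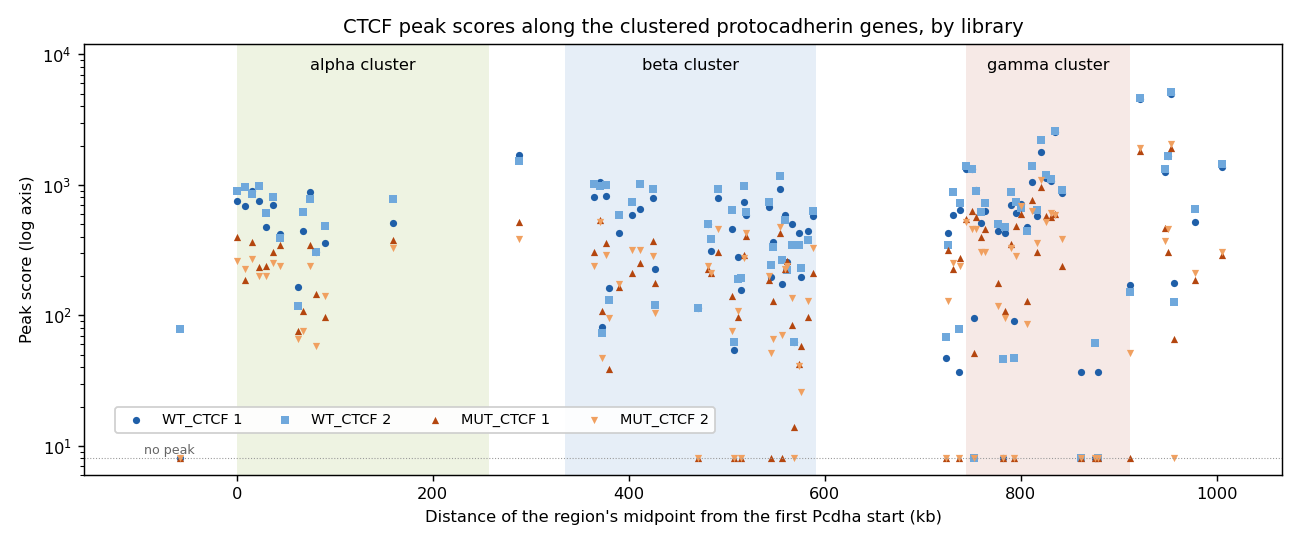
Peak score (log axis) of each of the 85 regions in each of the 4 libraries, against the distance of the region's midpoint from the first Pcdha start in kb; shading marks the alpha, beta and gamma clusters, and libraries without a peak sit on the dotted line. The WT_CTCF points lie above the MUT_CTCF points at nearly all regions, and the highest scores, up to 5112, lie downstream of the gamma cluster.

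A peak was called at 82 of the 85 regions in each of the WT_CTCF libraries and at 71 in each of the MUT_CTCF libraries, a difference of -11 (p = 0.333, exact permutation test). Both libraries of a genotype gave the same number, so the groups did not overlap. These are shares of 96.5% and 83.5%, while over all other regions they were 86.3% and 93.4% in WT_CTCF and 58.2% and 56.1% in MUT_CTCF. The difference was -25.5 when only peaks scoring at least 250 counted, and -30.5 when peak and region had to cover 50% of each other. All other regions were not counted under these rules, so these values have no background beside them. Of the 85 regions, 68 (80.0%) had a peak in all 4 libraries, against 52.6% of all regions. A peak in both WT_CTCF and in neither MUT_CTCF library was found at 6 regions (7.06%), against 19.5% of all regions. The reverse pattern was found at 0 regions, where the share over all regions was 0.033%. Among all other regions, weighted to the protocadherin regions' bins of the authors' mean, 80.6% had a peak in all 4 libraries and 6.93% had the WT_CTCF-only pattern, both close to the protocadherin shares.

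The remaining 11 regions had other patterns. A peak in 3 libraries was found at 5 of them, a peak in 1 library of each genotype at 1, and a peak in a single library, always WT_CTCF, at 5. The upstream flank's only region belongs to the last kind, with a score of 79 in WT_CTCF 2 and no peak in the others.

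The 6 WT_CTCF-only regions all had low scores. At the start of Pcdhb9 the scores were 113 and 114 in the WT_CTCF libraries. The region inside Pcdhb12 scored 54 and 63, and the region inside Pcdhb13 scored 156 and 192. Both of these genes kept a peak in all 4 libraries at their starts. The space between beta and gamma held a region at chr18:37813326-37813594 with scores of 47 and 68. It also held a region at chr18:37826611-37826879 with scores of 37 and 79. An intronic gamma region at chr18:37882760-37883009 scored 90 and 47. Their authors' mean ran from 28.3 to 86.8, while the 68 regions with a peak in all 4 libraries ran from 71.3 to 1025.

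Over the 68 regions with a peak in all 4 libraries, the median score was 617 and 740.5 in WT_CTCF and 290 and 256.5 in MUT_CTCF. The groups did not overlap, and the means were 679 ± 87.3 and 273 ± 23.7 (SD, n = 2), so MUT_CTCF stood at 40.3% of WT_CTCF (p = 0.333, exact permutation test). Over the 30249 other regions with a peak in all 4 libraries the median scores were 569 and 620 against 263 and 250, or 43.1%. The log2 ratio of the medians was -1.31 at the protocadherin regions and -1.21 at the others.

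Both MUT_CTCF scores were below both WT_CTCF scores at 64 of the 68 regions (94.1%), against 96.2% of all regions. Both were above at 0 regions, against 0.221% of all regions, and at 4 regions the genotypes overlapped. These shares were near those of the genome. The protocadherin median relative to the median of all other regions was 0.12 and 0.26 (log2) in WT_CTCF and 0.14 and 0.04 in MUT_CTCF. These values overlapped, and their difference of -0.10 was within the spread between libraries (p = 0.667, exact permutation test). Each protocadherin score was also set against the median of other regions in its bin of the authors' mean. The medians of these log2 ratios were -0.02 and -0.09 against -0.28 and -0.23, which did not overlap (difference -0.20, p = 0.333, exact permutation test).

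Peaks were also narrower in MUT_CTCF. The median width over the 68 regions was 595.5 and 635 bp in WT_CTCF and 431 and 406.5 bp in MUT_CTCF (p = 0.333, exact permutation test). Over the other regions it was 526 and 554 bp against 401 and 386 bp. Summits lay close together, with median distances of 9 to 14 bp between libraries of different genotype and of 11 and 7 bp between libraries of the same genotype. Distances over 200 bp were found in the alpha cluster alone.

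The log2 ratio of mean MUT_CTCF to mean WT_CTCF score was also taken region by region. The spans hold few regions, no test was made between them, and their place relative to the genome depended on how missing peaks were treated. Among regions with a peak in all 4 libraries the median was -1.18 over all other regions, -1.45 in the alpha cluster (13 regions), -1.52 at beta starts (20 regions) and -0.53 at beta regions within genes (7 regions). It was -0.96 in the gamma cluster (17 regions) and -1.59 in the downstream flank (6 regions). Requiring a peak in both MUT_CTCF libraries leaves out the regions that lost one, so these values describe the regions that kept it.

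With a library without a peak at a score of 0 and no region left out, the median was -1.87 over the 57577 other regions, of which 38.3% had no MUT_CTCF peak at all. It was -1.45 in the alpha cluster, -1.55 over all 21 beta starts, -1.73 over all 12 beta regions within genes, -1.26 over all 24 gamma regions and -1.62 over all 7 downstream regions. Each was above the median of the other regions, and of the 85 protocadherin regions 11 (12.9%) had no MUT_CTCF peak. The other regions had a lower median of the authors' mean, 95.3 against 212, and this ratio was not matched on it. At the within-gene regions the treatment of missing peaks moved the median from -0.53 to -1.73.

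**Figure D2:**
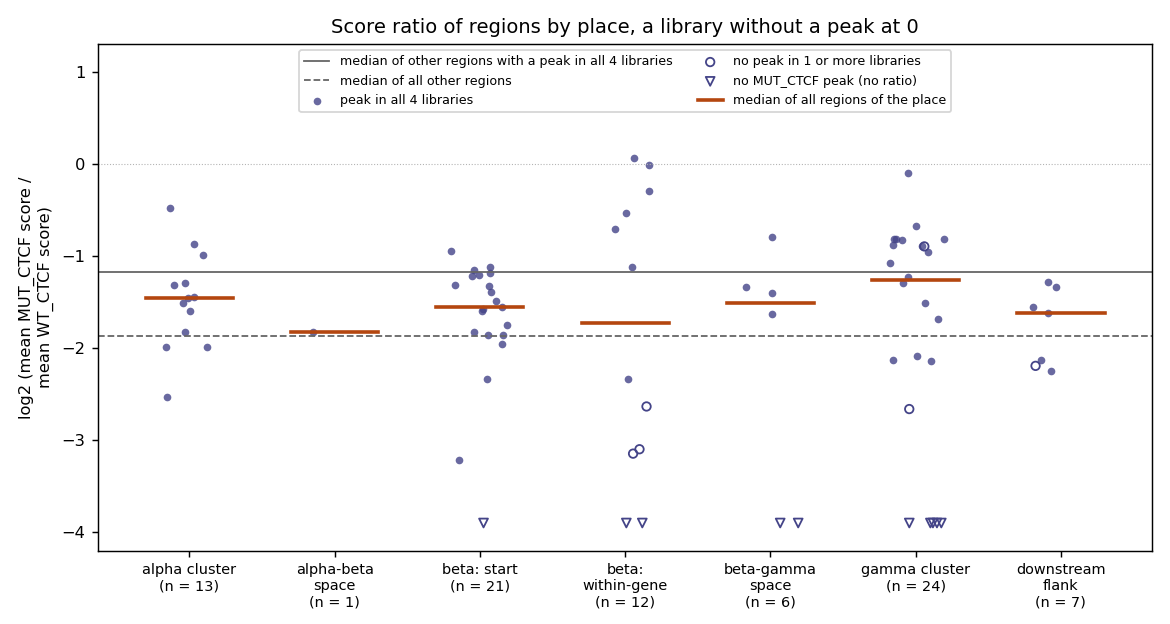
Log2 ratio of the mean MUT_CTCF score to the mean WT_CTCF score by place, with a library without a peak at 0; filled points have a peak in all 4 libraries, open circles lack at least 1, triangles at the lower edge have no MUT_CTCF peak and so no ratio, and bars are medians of all regions of a place. Alpha and beta start points are mostly filled and lie around their medians of -1.45 and -1.55, while the within-gene points run from 0.06 down to the triangles.

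Alpha variable exons each join a promoter and a large coding stretch, and CTCF is known to bind at a site before the start and at another inside the exon. All 13 alpha regions had a peak in all 4 libraries, and at all 13 both MUT_CTCF scores were below both WT_CTCF scores. The cluster's median score was 507 and 776 in WT_CTCF and 238 and 225 in MUT_CTCF. The WT_CTCF libraries differed from each other by more than the MUT_CTCF libraries did, but the groups did not overlap.

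Of 11 annotated alpha starts, 9 lay inside a region. The other starts, at chr18:37099869 and chr18:37303623, lay 813 and 53765 bp from the nearest region. Of the 4 alpha regions without an annotated start, 3 were over 1000 bp wide. The region with the highest mean score was at the start of Pcdha3 (chr18:37105275-37106536), with 900 and 847 against 367 and 272. At the first start of the Pcdha11 model (chr18:37089443-37090722) the scores were 758 and 901 against 401 and 263. The third was at the Pcdha11 start inside chr18:37164471-37165717, with 882 and 776 against 344 and 237. At each of these the genotypes were well apart.

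Alpha regions were wide, with a median of 1181 bp against 452 bp over all other regions, and 9 of 13 reached 1000 bp, a width reached by 2.15% of all regions. Over all 13 alpha regions the median width of a peak was 955 and 1074 bp in WT_CTCF and 398 and 373 bp in MUT_CTCF. In the 9 it was 1107 and 1159 bp against 398 and 389 bp. The cutoff on joined width favours regions with wide WT_CTCF peaks, which mostly set that width. How much of the contrast in the 9 follows from this choice was not tested. Single libraries departed from these medians. WT_CTCF 1 had a peak of 407 bp at chr18:37170083-37171170, and MUT_CTCF 1 a peak of 1179 bp at chr18:37126841-37128128. The MUT_CTCF lists placed 17 and 19 peaks in the 13 alpha regions, and the WT_CTCF lists 15 and 14.

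At the first start of the Pcdha11 model each WT_CTCF library had 1 peak, 1187 and 1280 bp wide, with its summit at -178 and -177 bp from the start. Each MUT_CTCF library had 2 narrower peaks there. Their summits were at -179 and 455 bp in MUT_CTCF 1 and at -186 and 449 bp in MUT_CTCF 2. The same change from 1 WT_CTCF peak to 2 MUT_CTCF peaks was found at chr18:37111997-37113247, also at an annotated start, and at chr18:37119604-37120829, in an intron of the merged model. In all, both MUT_CTCF libraries had more peaks than both WT_CTCF libraries at 3 of the 68 regions (4.41%), against 0.482% of all regions, and all 3 were alpha regions. All 3 were also wider than 1000 bp, a width that 2.15% of all regions reach. They were not compared with regions of that width elsewhere.

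At the Pcdha3 start every library had 1 peak, 1200 and 1153 bp wide in WT_CTCF and 398 and 477 bp wide in MUT_CTCF. The other 5 wide alpha regions differed between libraries of a genotype. Inside chr18:37164471-37165717, WT_CTCF 1 had 2 peaks, with scores of 882 and 129, WT_CTCF 2 had 1 wide peak, and each MUT_CTCF library had only the upstream peak. At chr18:37179460-37180640, WT_CTCF 2 and both MUT_CTCF libraries had 2 peaks. Over the 13 cases of 2 peaks in 1 region and library, the summits were 588 to 692 bp apart, with a median of 654 bp. The split lies at the level of called peaks, and how far it follows from lower tracks at a fixed cutoff was not tested.

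**Figure D3:**
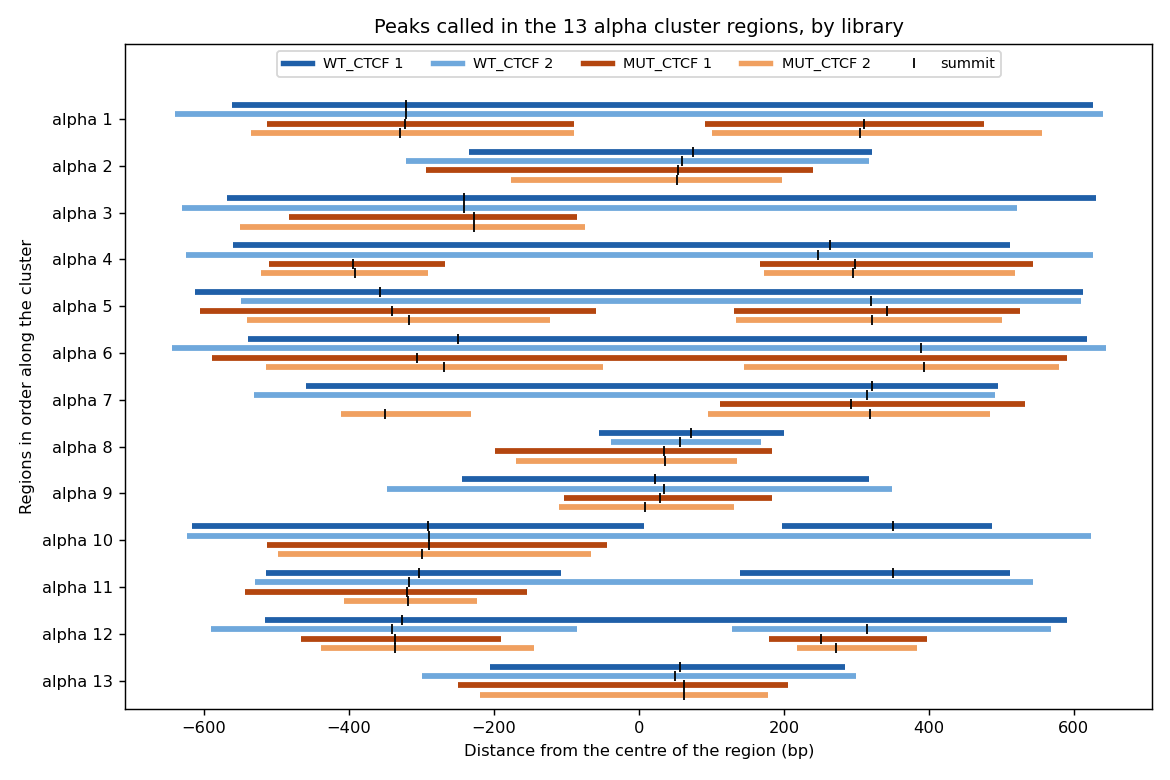
Peaks called in each of the 4 libraries at the 13 alpha regions, drawn as bars against the distance from the region's centre in bp, with a tick at each summit; regions are in order along the cluster. Wide WT_CTCF bars stand over pairs of shorter MUT_CTCF bars at the 1st, 4th and 5th regions. At the 4 narrow regions the summits lie within 75 bp of the centre.

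The reference sequence under the regions was searched on both strands for the core CTCF motif string of 13 bases. With at most 1 mismatch it was found at 26 of 85 regions (30.6%, 95% Wilson interval 21.8 to 41.0) and at 60.6% of all other regions. Without a mismatch the shares were 10.6% and 12.7%. Matches in the alpha cluster were found at 8 of 13 regions, all on the plus strand, which is the strand of the genes, and 6 of them had no mismatch. Each of the 8 lay within 19 bp of a summit of at least 1 library. In the 4 regions with both a match and an annotated start, the match lay 462 to 465 bp after the start, at the downstream of the 2 summit positions.

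The alpha exons resemble each other in sequence. The median share of a region's 31-base words that occur more than once in the sequence of the locus, on either strand, was 18.6% for alpha. A further copy need not lie in a CTCF region or in another alpha exon. The intronic region at chr18:37152313-37152711 had the highest share, 56.9%. The authors removed reads that aligned to several places, and what this took from such regions was not tested.

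The space between alpha and beta, where an enhancer of the alpha genes is known to lie after their constant exons, held a single region at chr18:37376921-37378465, 1545 bp wide. Its scores were 1690 and 1510 in WT_CTCF and 518 and 386 in MUT_CTCF. They were above every alpha score of the same library. It carried 2 matches of the motif, both on the minus strand and so facing the alpha matches. Whether it is that enhancer was not tested.

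Beta genes are single exons without the shared constant exons of the other clusters. Of the 22 Pcdhb genes, 21 had a region at the start, and 12 had a further region inside the gene. Pcdhb1, the first of the cluster, had neither, and its start lay 29390 bp from the nearest region. Every Pcdhb gene with a region within it also had one at its start.

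Median summit positions were similar in the 4 libraries. At starts, the median summit position relative to the annotated start was -65, -59, -65.5 and -65.5 bp in WT_CTCF 1, WT_CTCF 2, MUT_CTCF 1 and MUT_CTCF 2. Within genes it was 2213, 2219, 2261 and 2238 bp after the start. These medians cover 21, 21, 20 and 20 start regions and 12, 12, 8 and 9 within-gene regions. Single regions departed from this, and these examples were chosen after their values were seen. Within Pcdhb20 the summits were at 2211 and 2209 bp in WT_CTCF and at 2389 and 2383 bp in MUT_CTCF. Within Pcdhb14 they were at 2226 and 2222 bp against 2295 and 2310 bp. In the 12 genes with both, the WT_CTCF summits were 2229.5 to 2427.5 bp apart, with a median of 2286.5 bp. The within-gene regions were exonic in all 12.

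**Figure D4:**
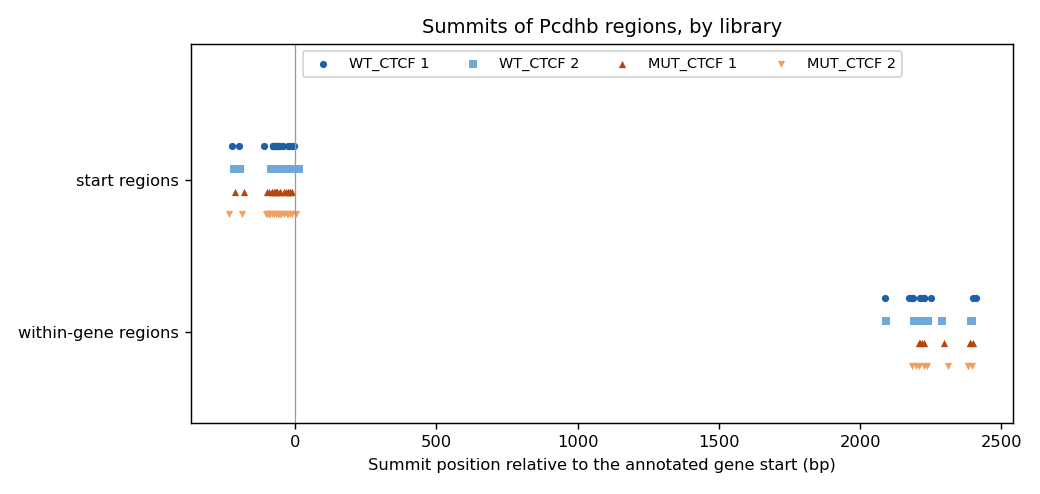
Position of each summit relative to the annotated start of its Pcdhb gene in bp, for start regions (upper rows) and within-gene regions (lower rows) in each of the 4 libraries. Start summits lie between -236 and 12 bp and within-gene summits between 2088 and 2409 bp in both genotypes.

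Start regions carried the higher median scores. Over the 20 starts with a peak in all 4 libraries the median score was 586 and 689 in WT_CTCF and 218.5 and 237 in MUT_CTCF, with means of 637.5 ± 72.8 and 228 ± 13.1 (SD, n = 2). MUT_CTCF stood at 35.7% of WT_CTCF, and both of its scores were below both WT_CTCF scores at all 20. Pcdhb3 had the highest mean, with 1047 and 974 against 533 and 518. Pcdhb17 followed with 937 and 1161 against 429 and 473, and Pcdhb11 with 793 and 937 against 303 and 458. None of these 3 genes showed overlap between the genotypes. Among the 12 genes with both kinds of region, the within-gene score was above the start score in 0, 1, 3 and 2 genes in WT_CTCF 1, WT_CTCF 2, MUT_CTCF 1 and MUT_CTCF 2. At Pcdhb14, for example, MUT_CTCF scored 407 and 429 within the gene and 290 and 276 at the start.

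The ends of the range among the starts were chosen after their values were seen. Pcdhb3 had the smallest log2 ratio in size, -0.94. Pcdhb20, annotated as a pseudogene, had the largest, -3.22, with scores of 424 and 347 against 42 and 41. Pcdhb9 was the only start of the 21 without a MUT_CTCF peak.

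Within-gene regions had lower median scores than starts. Over all 12, with a library without a peak at 0, the median was 185 and 207.5 in WT_CTCF and 48.5 and 61 in MUT_CTCF, which did not overlap. Over the 7 with a peak in all 4 libraries the median score was 228 and 223 in WT_CTCF and 178 and 104 in MUT_CTCF, with means of 225.5 ± 3.54 and 141 ± 52.3 (SD, n = 2). The genotypes overlapped at 3 of the 7, and these are named here after their values were seen. Pcdhb18 scored 257 and 223 against 263 and 237, and Pcdhb3 scored 82 and 73 against 107 and 47. Pcdhb8 scored 228 and 119 against 178 and 104. The highest within-gene scores were at Pcdhb14, with 584 and 624 against 407 and 429, which did not overlap.

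The 5 other within-gene regions lacked a MUT_CTCF peak in at least 1 library, so the 7 are those that kept one. Pcdhb12 and Pcdhb13 had none in either. Pcdhb15 scored 195 and 242 in WT_CTCF and 51 in MUT_CTCF 2 alone. Pcdhb17 scored 175 and 266 in WT_CTCF and 71 in MUT_CTCF 2 alone. Pcdhb19 scored 62 and 62 in WT_CTCF and 14 in MUT_CTCF 1 alone. A peak in all 4 libraries was thus found at 58.3% of within-gene regions and 95.2% of starts.

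The within-gene median relative to the start median changed direction with the treatment of missing peaks, so no difference between the kinds of region is read from it. Over the regions with a peak in all 4 libraries it was -1.36 and -1.63 (log2) in WT_CTCF and -0.30 and -1.19 in MUT_CTCF, a difference of 0.75. That set leaves out 5 of 12 within-gene regions and 1 of 21 starts for a missing MUT_CTCF peak. Over all of them, with a missing peak at 0, the values were -1.66 and -1.62 against -2.13 and -1.96, a difference of -0.40.

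**Figure D5:**
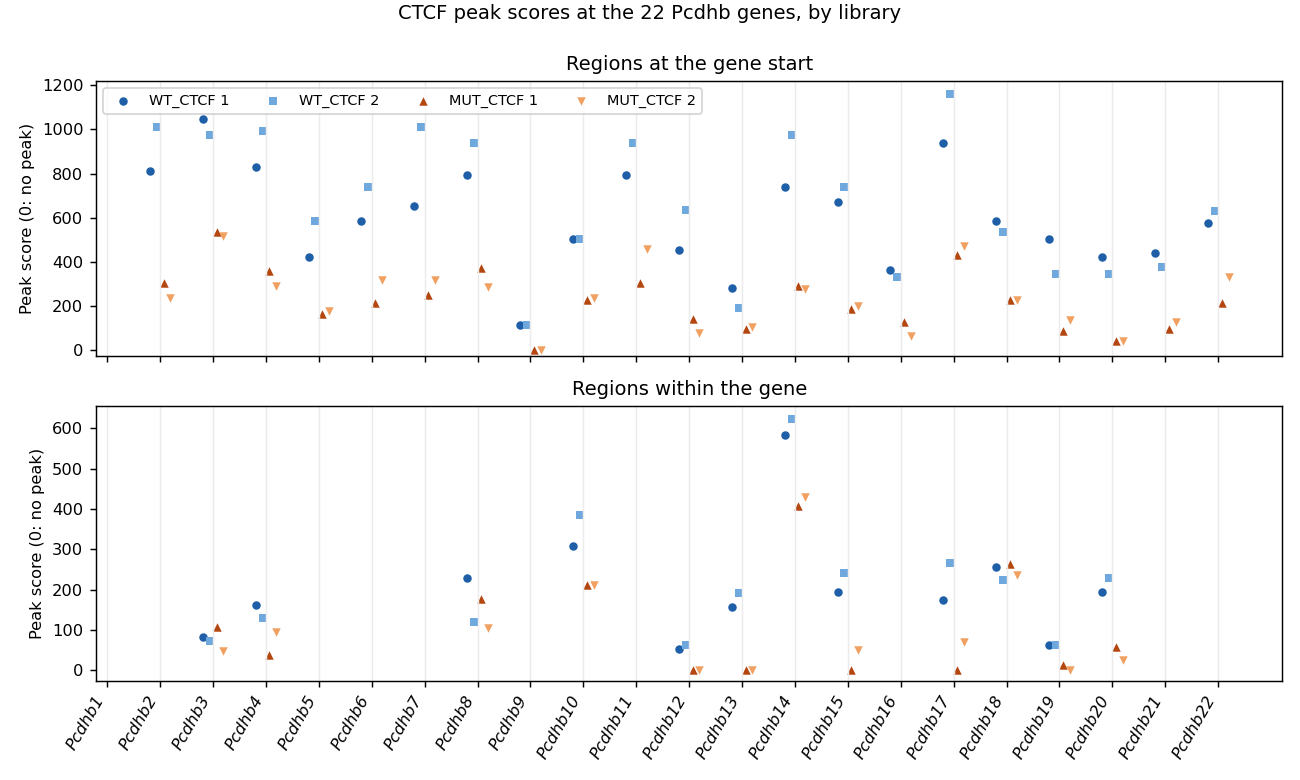
Peak scores of the regions at the start (upper panel) and within the gene (lower panel) for the 22 Pcdhb genes in each of the 4 libraries, with 0 where a region has no peak and no point where a gene has no region. At starts the WT_CTCF points stand above the MUT_CTCF points in all 21 genes with a region, and within genes the points of Pcdhb3, Pcdhb8 and Pcdhb18 overlap.

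The motif string with at most 1 mismatch was found at 0 of 21 starts and at 9 of 12 within-gene regions, all 9 on the minus strand, against the direction of the genes. Of these 9, 7 lay 100 to 200 bp after the WT_CTCF summit and 2 within 10 bp of it. Allowing 2 mismatches within 50 bp of the WT_CTCF summit, a search added after the data were seen, 4 of 21 starts had a match, all on the plus strand, and 2 of 12 within-gene regions, both on the minus strand. The shares of the 2 kinds of region were thus close in this search, 19.0% and 16.7%. The same search found matches at 27 of the 85 regions (31.8%) and at 80.0% of the 57395 other regions with a WT_CTCF summit, against 2.35% and 4.40% of windows moved by 5000 bp. No match says only that these letters are not in the window. A median of 18.4% of the 31-base words of within-gene regions occurred more than once in the sequence of the locus, and a median of 0% of those of starts.

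The space between beta and gamma held 6 regions, of which 4 had a peak in all 4 libraries, and all 4 were lower in MUT_CTCF. The highest was at the first start of the Pcdhgc5 model (chr18:37833557-37834258), placed in the space by its midpoint, with 1313 and 1392 against 548 and 518. A region at chr18:37821100-37821708 scored 586 and 883 against 225 and 250. One at chr18:37828257-37828817 scored 637 and 723 against 277 and 237.

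Among regions with a peak in all 4 libraries, MUT_CTCF kept the highest share of the WT_CTCF score in gamma, of the 3 clusters. The difference in score units was not the smallest (-365.5, against -327 in beta and -410 in alpha). Such regions were 70.8% of gamma regions, against 100% in alpha and 81.8% in beta. The log2 ratio of medians was -0.88 (SD 0.31) in gamma, -1.44 (0.44) in alpha and -1.32 (0.17) in beta, without a test between clusters. The median score over the 17 such gamma regions was 716 and 882 in WT_CTCF and 481 and 386 in MUT_CTCF. The means were 799 ± 117 and 433.5 ± 67.2 (SD, n = 2). MUT_CTCF stood at 54.3% of WT_CTCF, and the genotypes overlapped at 1 of the 17, the intronic region at chr18:37890209-37890900, with 716 and 660 against 594 and 688. The peaks were 604 and 627 bp wide at the median in WT_CTCF and 508 and 486 bp in MUT_CTCF.

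The highest gamma scores, at the start inside chr18:37925123-37925840, were 2561 and 2582 against 596 and 583. Its log2 ratio was -2.13, and among the 17 regions it was one of 7 below the median of other regions with a peak in all 4 libraries. At chr18:37910834-37911473, in an intron of the merged model, the scores were 1794 and 2209 against 970 and 1092. At the start inside chr18:37901304-37901980 they were 1057 and 1397 against 769 and 625.

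Of 10 annotated gamma starts, 6 lay inside a region and 1 more, at chr18:37966064, had one just before it with a peak of 61 in WT_CTCF 2 alone. The last 3 starts had no region, and the nearest was 6091 to 10666 bp away. The 6 gamma regions of other patterns and the WT_CTCF-only region all scored at most 172 in any library. The motif string was found at 3 of 24 gamma regions, and in the search around the WT_CTCF summit at 0 of 7 gamma starts.

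The flank after the gamma cluster, where enhancers of the beta and gamma genes are known to lie, held the strongest regions of the locus. All 7 touched Diap1, a formin gene that nucleates actin filaments, on the opposite strand. At chr18:38042846-38043813 the scores were 4942 and 5112 in WT_CTCF and 1926 and 2043 in MUT_CTCF. At chr18:38011622-38012386 they were 4536 and 4632 against 1830 and 1926. At chr18:38039537-38040346 they were 1670 and 1670 against 303 and 458. The libraries of a genotype were close together at each, except those of MUT_CTCF at chr18:38039537-38040346, and the genotypes were far apart.

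The last region, chr18:38095101-38095683, covered the start of Diap1 and touched an exon of Hdac3, a histone deacetylase gene, with 1374 and 1436 against 290 and 303. The median score over the 6 regions with a peak in all 4 libraries was 1522 and 1553 against 385 and 415.5, or 26.0%. The log2 ratio of these medians was -1.94, while the median of the ratios region by region was -1.59, since the 6 scores fall into separate ranges. The motif string was found at 4 of the 7 regions, all on the minus strand, and in the search around the WT_CTCF summit at 6 of 7.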

How the data were processed

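CTCF ChIP-seq was performed on 2 WT_CTCF and 2 MUT_CTCF libraries, grouped by their titles. The authors trimmed reads with Trim Galore 0.4.4, aligned them to mm9 with Bowtie2 2.3.4.1, removed multiply aligned and duplicate reads, and called peaks per library with MACS2 2.1.1.20160309 on tracks scaled by Drosophila spike-in factors. The deposited peak lists give positions, a summit and a score. How the score is defined, which cutoff was set and whether input entered are not given in the sources used here. The authors' deposited table of joined regions gives a mean signal, read counts scaled by the spike-in and averaged over the libraries. Its 5 columns of the authors' DESeq2 1.38.0 comparison (log2 fold change, its error, statistic, p-value, adjusted p-value) were not used. No reads per library were analysed, so the depth is unknown, and 0 per-sample columns were left unused.

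Peaks were assigned to regions by an overlap of 1 bp (Python 3.11.15, pandas 2.3.3, scipy 1.17.1), and a region's score in a library was that of its highest peak. A gene had a start region if one touched its start or lay up to 1000 bp before it. Genotypes were compared by exact two-sided permutation tests of library values. Named regions were the 3 with the highest mean score per span and those found in 1 genotype only. Members, lists and tests were chosen with earlier results of these data known. Peak assignment, motif search and test were tested on simulated data. Alternatives were other overlaps, score cutoffs, flanks, summaries, left-out libraries and a replicate block. Sequences of this locus are not printed here.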

Additional observations from a re-analysis of the deposited data

How the results depend on the processing

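In all, 14 results were computed under 85 alternatives. Of these alternatives, 76 were labelled the same, 8 moved in size and 1 reversed in direction. For differences between library values, the same meant an unchanged sign only, and for the cluster ratios also a similar size. Counts, shares and the summit distance have no direction and could only be the same or moved. The replicate-block alternatives among them could not change a direction. The difference between beta regions within genes and at starts reversed, from 0.75 to -0.40, with regions without a peak at 0; it was 0.28 without MUT_CTCF replicate 1 and 1.10 without MUT_CTCF replicate 2. The difference in regions with a peak, -11, was -25.5 with the score cutoff and -30.5 with the reciprocal overlap. The count of WT_CTCF-only regions moved from 6 to 20 with only peaks scoring at least 250 (the pooled median). It was 19 with a reciprocal overlap of 50%, 11 with a peak required in 1 WT_CTCF library, and 8 to 9 without any single replicate. Neither for this count nor for the difference in regions with a peak was the share of all regions computed under these rules. The larger values are therefore not read as particular to the locus. The downstream flank's log2 ratio of medians was -2.06 with regions without a peak at 0, and ran from -2.21 to -1.89 without 1 replicate, as the regions entering changed. The motif share of 30.6% was 10.6% without a mismatch and 16.5% within 100 bp of the WT_CTCF summit, where other regions gave 12.7% and 58.7%. Regions with more peaks in MUT_CTCF numbered 3 to 5 without 1 replicate, with 5 without MUT_CTCF replicate 1; these alternatives and those of the beta ratio were chosen after seeing the data.

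With libraries of the same number as a replicate block, the differences were -11 regions, -405.5 in score and -196.5 bp in width, each with p = 0.5, the smallest that an exact sign-flip permutation of 2 pairs gives, and -0.10 for the relative score (p = 1, exact). The block keeps every difference as it was by construction, also the 0.75 of the beta ratio, so it is no check of direction. For the relative score the pairs differed in sign, 0.02 and -0.22. The library numbers were not taken as pairs, since the ratios of same-numbered libraries correlated at -0.0033 over all regions and 0.065 over protocadherin regions.

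The relative score, -0.10, ran from -0.17 (without WT_CTCF replicate 1) to -0.03 (without WT_CTCF replicate 2). It was -0.20 with each region set against others in its bin of the authors' mean, and -0.21 on mean scores.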
